A study of Homo sapiens with 4 samples.

Results

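Complex I, the NADH:ubiquinone oxidoreductase of the inner mitochondrial membrane, was examined through the 46 genes whose symbols begin with NDUF, out of 26726 genes in the deposited table. A further 14 NDUF rows, which are pseudogenes or hyphenated names, were left out. The rule rests on names and not on measured values, although earlier results of these data were known when the family was chosen. The 46 genes are 7 core subunits, 30 accessory subunits, 7 assembly factors of the NDUFAF series, and NDUFA4 and NDUFA4L2, which carry the family name but are counted outside the complex. RNA was sequenced from HN12 cells, an established line of human head and neck squamous cell carcinoma (HNSCC), in 2 ATAD3A knockout (KO) and 2 parental wild-type (WT) libraries from independent cultures. ATAD3A is an AAA ATPase anchored in the inner mitochondrial membrane, and the KO cells were made with CRISPR/Cas9 and grown out from single cells after puromycin selection. The labels give no treatment, and name DMEM with serum and antibiotics for all cultures, while the study's methods name DMEM/F12. The labels do not say which KO clone or clones were sequenced, so the loss of ATAD3A and the history of a clone cannot be told apart.

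Complex I oxidises NADH, passes the electrons along a chain of iron-sulfur clusters to ubiquinone, and pumps protons across the inner membrane. Its hydrophilic arm consists of the N module, which takes up electrons from NADH, and the Q module, which hands them to ubiquinone. Its membrane arm is built from the ND1, ND2, ND4 and ND5 modules, each named after a subunit that mitochondrial DNA encodes. The nuclear NDUF genes supply the remaining subunits, and assembly factors join the modules without staying in the finished enzyme.

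Library totals ran from 13569971 to 18943547 counted reads. The targeted gene ATAD3A stood at 38 and 30 CPM (reads scaled to library size) in the KO libraries against 116 and 106 CPM in the WT libraries, so a lower but measurable level of its transcript remained (log2 fold change -1.70 ± 0.0907 SE, adjusted p = 1.58e-17 by the quasi-likelihood test of edgeR, adjusted after Benjamini and Hochberg). All 7 squamous epithelial markers that were checked (KRT5, KRT14, KRT17, TP63, SFN, CDH1 and EPCAM) were expressed, and 4 of them rose and 3 fell in KO cells. KRT5 (log2 fold change 2.63) and KRT14 (2.20) moved further than any complex I gene, and the part of such marker changes in the values of the members was not tested. The immune gene PTPRC and the endothelial gene CDH5 were at 0.967 CPM or less in every library. Of the fibroblast genes, COL1A1 was at 11.3 to 14.6 CPM and PDGFRB at 0.433 to 2.06 CPM, neither passing the test, while COL1A2 was at 0.144 CPM or less.

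Promoters of the members were read first, since many nuclear genes of the respiratory chain are known targets of NRF1, GABPA, YY1 and ESRRA. RefSeq promoter sequences on GRCh38.p14, from 250 bases before to 50 bases after the start of each gene, were matched by symbol for 39 of the 46 members. NDUFA4, NDUFAF6, NDUFB5, NDUFB9, NDUFC2 and NDUFS5 were among those without an entry. Each motif was searched as exact letters on both strands, and the motifs were chosen after the expression values were known. The NRF1 motif, written GCGCA, then any base, then GCGC, occurred in 7 of the 39 promoters (17.9%) and in 6.98% of all 27305 promoters. The YY1 motif AAGATGGC occurred in 7 of the 39 promoters (17.9%) and in 3.52% of all promoters. The GABPA motif CCGGAAG occurred in 6 of the 39 promoters (15.4%) and in 12.2% of all promoters. The ESRRA motif TCAAGGTCA occurred in 0 of the 39 promoters and in 0.432% of all promoters. At least 1 of these motifs was present in 18 of the 39 promoters.

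The promoters of 4 members that the results below turn on are printed 5′ to 3′ along the strand of the gene, with the motif matches in capitals. NDUFA3 is shown for the largest rise among the members, NDUFA6 and NDUFA1 as further members that rose under every setting tried, and NDUFB4 as the member that fell with and without correction for base composition. The NDUFA3 window is chr19:54102605-54102904 (plus strand), with NRF1 motifs from -170 to -161 and from -73 to -64 relative to the start and a YY1 motif from 22 to 29. The NDUFA6 window is chr22:42090723-42091022 (minus strand), with a YY1 motif from 26 to 33. The NDUFA1 window is chrX:119871582-119871881 (plus strand), with a GABPA motif on the opposite strand from -47 to -41. The NDUFB4 window is chr3:120596086-120596385 (plus strand), with NRF1 motifs from -159 to -150, from -63 to -54 and from -8 to 2. These are matches of letters and not measured binding sites.
NDUFA3: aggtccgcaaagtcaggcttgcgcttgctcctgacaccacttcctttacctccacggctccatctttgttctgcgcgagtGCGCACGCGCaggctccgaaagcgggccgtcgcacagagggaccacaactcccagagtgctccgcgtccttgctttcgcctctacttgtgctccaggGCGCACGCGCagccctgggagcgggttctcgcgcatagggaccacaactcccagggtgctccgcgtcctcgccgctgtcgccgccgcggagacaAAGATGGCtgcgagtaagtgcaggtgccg
NDUFA6: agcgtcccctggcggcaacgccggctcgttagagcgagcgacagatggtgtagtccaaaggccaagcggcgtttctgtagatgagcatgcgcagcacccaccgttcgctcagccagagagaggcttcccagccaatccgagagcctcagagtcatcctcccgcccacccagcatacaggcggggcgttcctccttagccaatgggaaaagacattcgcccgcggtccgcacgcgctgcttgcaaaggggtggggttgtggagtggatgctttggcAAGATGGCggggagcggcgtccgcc
NDUFA1: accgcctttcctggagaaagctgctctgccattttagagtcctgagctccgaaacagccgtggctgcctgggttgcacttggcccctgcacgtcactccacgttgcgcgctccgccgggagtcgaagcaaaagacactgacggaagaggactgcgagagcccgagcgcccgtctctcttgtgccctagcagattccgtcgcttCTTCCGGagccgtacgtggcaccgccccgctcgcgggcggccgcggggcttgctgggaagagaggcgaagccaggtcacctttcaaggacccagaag
NDUFB4: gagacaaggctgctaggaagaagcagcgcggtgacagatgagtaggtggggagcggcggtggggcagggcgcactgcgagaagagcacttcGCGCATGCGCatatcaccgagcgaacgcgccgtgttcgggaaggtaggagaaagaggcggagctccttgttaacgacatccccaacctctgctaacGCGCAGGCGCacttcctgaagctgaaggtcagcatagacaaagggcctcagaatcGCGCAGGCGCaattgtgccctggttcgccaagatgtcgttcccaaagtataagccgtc

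Levels of the members were first compared in parental cells, on the authors' RPKM scale, which divides counts by gene length and library total. The median member stood at 18.5 RPKM over the 2 WT libraries. NDUFS5, an accessory subunit of the ND2 module, was the highest at 234 and 239 RPKM, 12.7 times that median. NDUFS6, an accessory zinc-binding subunit of the N module, followed at 112 and 116 RPKM, and NDUFB7, an accessory subunit of the ND5 module, at 108 and 100 RPKM. The WT libraries of NDUFS6 and NDUFB7 did not overlap, and both genes lay well under NDUFS5. These were the 3 members over 100 RPKM, while 17 members lay between 20 and 100 RPKM and 7 lay under 2 RPKM.

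The core subunits, which are required in fixed proportion in the assembled enzyme, spanned a wide range of transcript levels. NDUFV1, which binds NADH and FMN, was at 92 and 89.5 RPKM. NDUFS3 and NDUFS8 lay close together, at means of 35.9 and 33.8 RPKM with SDs of 0.171 and 0.314 (n = 2 libraries each). NDUFS1 was at 19.3 ± 0.127 RPKM, NDUFS7 at 4.14 ± 0.274 RPKM and NDUFV2 at 1.81 ± 0.0139 RPKM (SD, n = 2). The WT libraries of NDUFS3 and NDUFS8 did not overlap. The 7 assembly factors of the NDUFAF series were lower than most subunits, since 6 of them had WT means between 3.76 and 6.78 RPKM and NDUFAF2 alone reached 38.5 RPKM.

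The lowest members coincided with overlapping gene models. In GENCODE release 29, exactly 7 members have coding exons that another gene overlaps on the same strand, namely NDUFB8 (85.2% of coding bases), NDUFV2 (84.7%), NDUFA7 (78.3%), NDUFC2 (76.9%), NDUFA9 (67.9%), NDUFA13 (55.2%) and NDUFA11 (36.9%). Their mean WT levels ran from 0.316 to 11 CPM with a median of 1.66 CPM, against 1.45 to 155 CPM with a median of 38.9 CPM in the other 39 members. Under 10 CPM lay 6 of the 7 overlapped members and 4 of the other 39. The annotation and overlap rule behind the deposited counts may differ from GENCODE release 29, and the part of overlap in these low levels was not tested. The values of these 7 genes are therefore uncertain to an extent that is not known. Outside coding bases, PTPMT1 overlaps 19.6% of the exonic bases of NDUFS3 on the same strand. MGARP likewise overlaps 18.5% of those of NDUFC1, and both members are counted among the other 39. On the opposite strand, RNF113A overlaps 44.5% of the exonic bases of NDUFA1 and RBM10 overlaps 44.9% of those of NDUFB11.

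**Figure D1:**
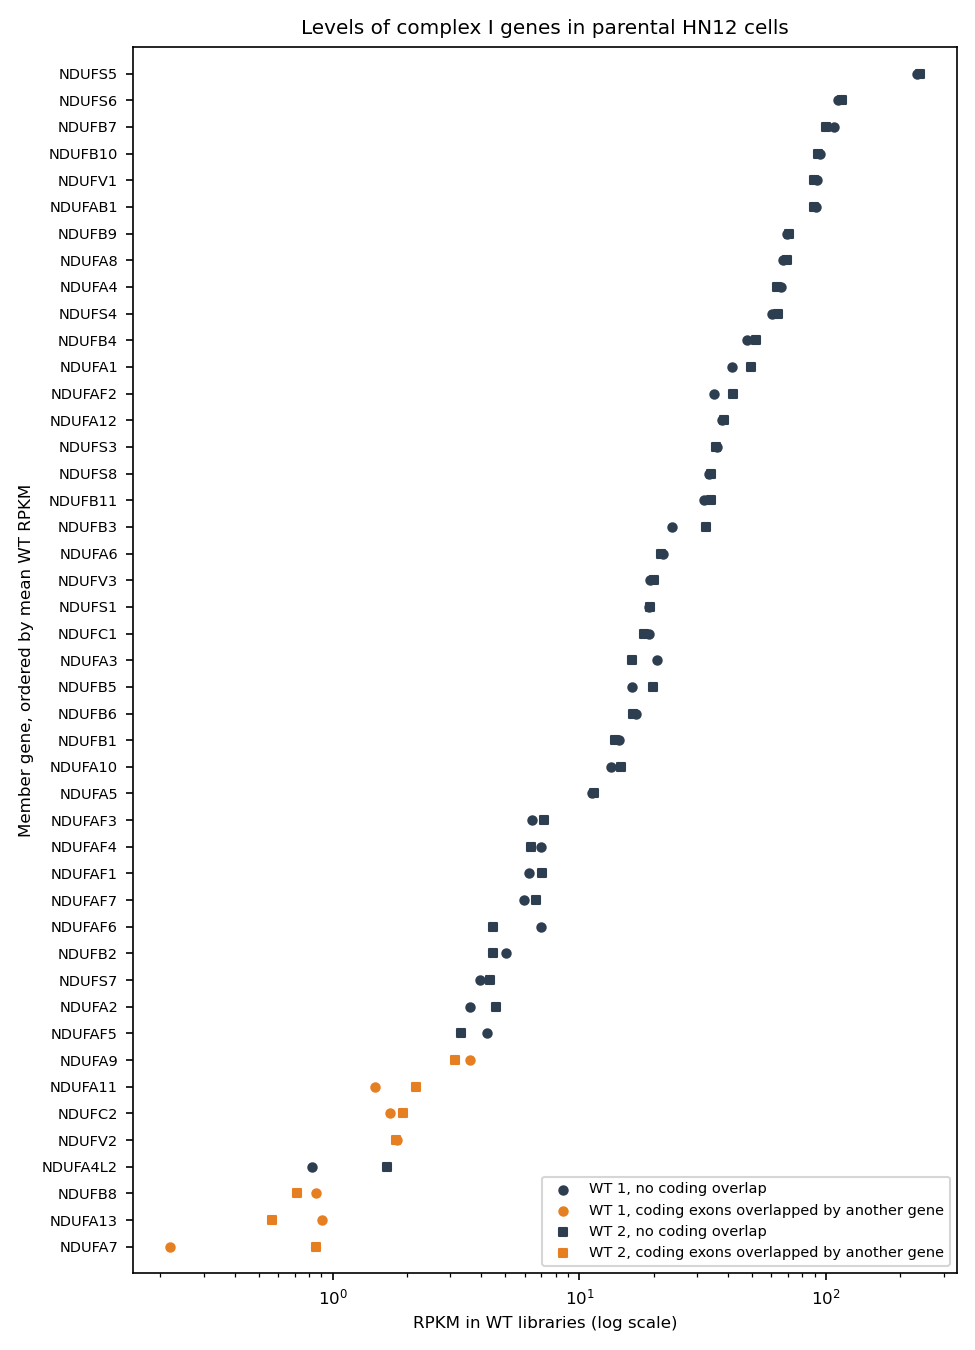
Levels of 45 complex I genes in the 2 WT libraries in RPKM on a log scale, ordered by their mean, with circles for WT 1 and squares for WT 2. Orange marks the 7 members whose coding exons another gene overlaps on the same strand, all of which sit at the lower end, while NDUFS5 stands alone at the top at 234 and 239 RPKM.

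KO was then compared with WT to ask whether transcripts of complex I genes differed after loss of ATAD3A. Of the 45 members with enough counts to test, 21 rose in KO cells (46.7%), 2 fell (4.44%) and 22 passed in neither direction, at an adjusted p under 0.05 in edgeR's quasi-likelihood test. Over all 15104 tested genes, 20.4% rose and 19.1% fell. The folds of the members that rose lay between 1.16 and 1.8, so the differences were small. The median log2 fold change of the members was 0.28, against -0.0042 over all tested genes, and 33 of the 45 (73.3%) lay above 0, against 49.6% of all tested genes. Both KO libraries lay above both WT libraries for 31 of the 45 members (34.1% of all tested genes), and both lay below for 6 (34% of all tested genes). Together the 46 genes took up 2523 and 2355 CPM in the KO libraries and 1978 and 2004 CPM in the WT libraries. These are shares of the sequenced RNA, and total RNA per cell was not measured.

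With scaling by library totals only, 16 members rose and 4 fell, and the share of rises among the calls went from 91.3% to 80% for the members and from 51.5% to 41% for all genes. The rises of NDUFA8, NDUFA9, NDUFAF6 and NDUFS3 were among those lost, and NDUFA5 (-0.22) and NDUFS4 (-0.28) fell. DESeq2 found 15 members higher and 0 lower, with 2 lower at an unadjusted p under 0.05. Over all 15104 tested genes DESeq2 called 2165 higher and 1881 lower, against 3074 and 2891 in the edgeR fit. Limma on log2(RPKM + 1) found 13 members higher and 4 lower, and 2140 and 2879 over all tested genes. In limma the rises of NDUFA8, NDUFA9, NDUFA10, NDUFAF2, NDUFAF6, NDUFB9 and NDUFS3 were among those lost. With 1 library left out at a time, the median log2 fold change of the members ran from 0.22 to 0.37. Over all tested genes it ran from -0.00916 to 0.00844. The numbers of rises and falls also depended on the library left out. Each of these fits leaves 1 library in a group, so their counts are not given. NDUFA7, an accessory subunit of the N module, was the member not tested, with 15 and 9 counts in KO and 2 and 7 counts in WT libraries. Without the 7 overlapped members, a check chosen after seeing the data, 20 of 39 rose (51.3%) and 2 fell (5.13%). Their median log2 fold change was 0.29. Over all tested genes 20.4% rose and 19.1% fell.

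**Figure D2:**
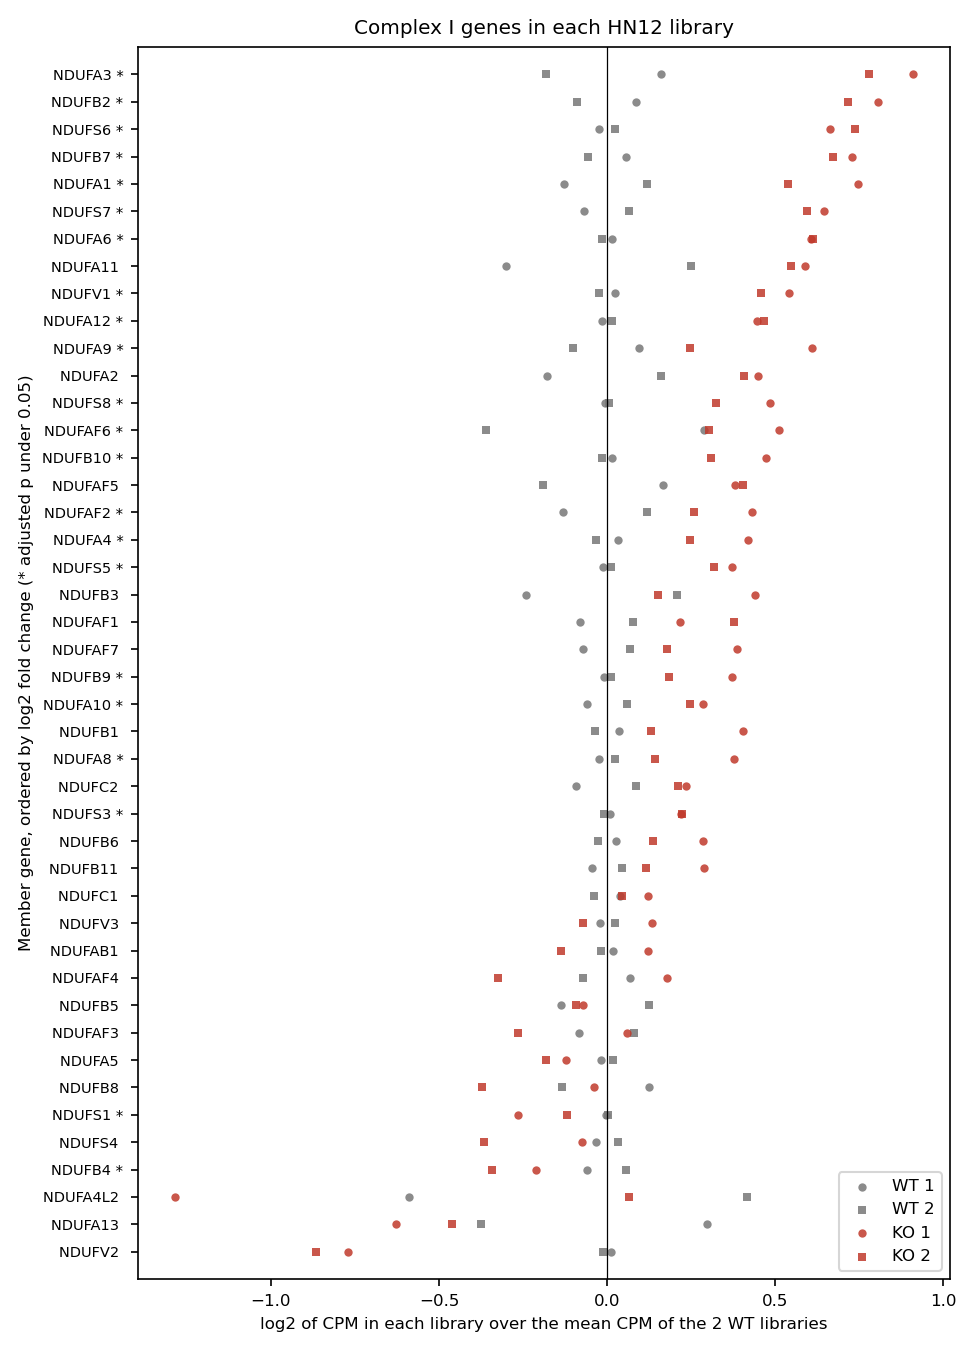
Level of 44 tested complex I genes in each library, as the log2 of its CPM over the mean of the 2 WT libraries, ordered by log2 fold change, with red for KO, grey for WT, circles for replicate 1, squares for replicate 2 and asterisks for an adjusted p under 0.05. Both red points lie to the right of both grey points for 30 of these genes, from NDUFA3 at the top, and to the left for 6 genes.

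Base composition and gene length moved with the KO to WT difference across the whole transcriptome. Over 11000 genes the log2 fold change had a Spearman correlation of 0.466 with GC content and of -0.28 with length, given as a description across genes, which are not independent replicates. The members had a median GC content of 48.3%, close to the 49% of all tested genes, but a median length of 1388 nt against 3137.5 nt. Among the 45 members the Spearman correlations of log2 fold change were 0.264 with GC content and -0.133 with length. A second edgeR fit therefore carried offsets for GC content and length in each library. In this fit 14 members rose (31.1%), 3 fell (6.67%) and the median log2 fold change was 0.17, against 17.3% rising and 16.9% falling over all 14684 genes it tested. Values from this fit are called corrected below. Among the members their Spearman correlation with GC content was -0.252, against 0.264 without the offsets. The offsets were fitted to these same 4 libraries, so they can also take up a KO difference that follows GC content or length. Corrected values are therefore a second reading and not an unbiased one.

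Of the members that rose, 12 did so in both fits, namely NDUFA1, NDUFA3, NDUFA4, NDUFA6, NDUFA9, NDUFA10, NDUFA12, NDUFAF6, NDUFB2, NDUFS6, NDUFS8 and NDUFV1. A further 9 rose in the uncorrected fit only, and NDUFAF5 and NDUFAF7 rose in the corrected fit only. NDUFB4 fell in both fits, NDUFS1 in the uncorrected fit only, and NDUFAB1 and NDUFS4 in the corrected fit only. Under all 14 alternative settings 9 members rose, namely NDUFA1, NDUFA3, NDUFA4, NDUFA6, NDUFA12, NDUFB2, NDUFS6, NDUFS8 and NDUFV1, with uncorrected log2 fold changes between 0.34 and 0.84. No fall was kept under all 14 settings. The shares of all tested genes that rose in both fits or under all 14 settings were not computed, so these counts have no background beside them.

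**Figure D3:**
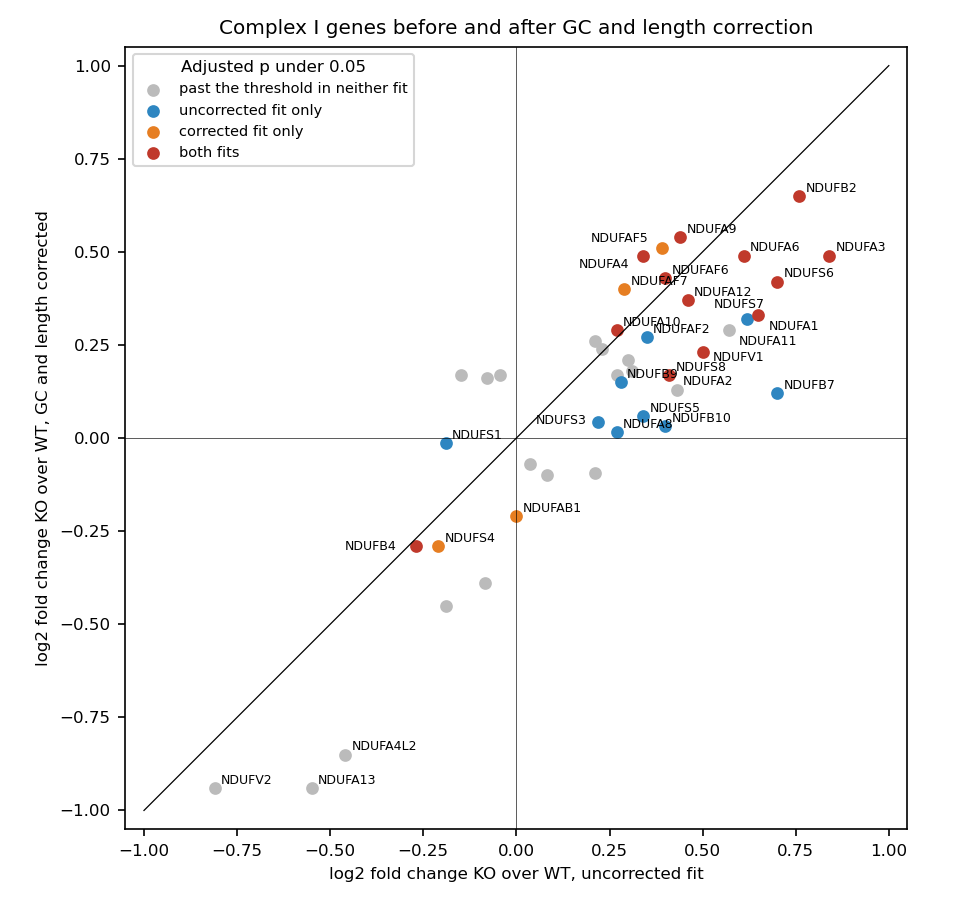
Log2 fold change of KO over WT for 44 tested complex I genes in the uncorrected fit (horizontal) and in the fit corrected for GC content and length (vertical), with a line of equality and colours for the fits in which the adjusted p was under 0.05. Most genes lie under the line, and the 12 red points above 0 rose in both fits.

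In the N module, 4 of 9 tested members rose (44.4%) and 1 fell (11.1%), beside 20.4% and 19.1% of all tested genes. The median log2 fold change was 0.43. In the corrected fit 4 rose, 1 fell and the median was 0.13, beside 17.3% rising and 16.9% falling over all genes. NDUFV1, the core subunit that oxidises NADH, was at 225 and 212 CPM in KO and 157 and 152 CPM in WT libraries. The groups did not overlap, and the log2 fold change was 0.50 ± 0.0601 SE (adjusted p = 1.7e-08; corrected, 0.23, adjusted p = 0.000533). NDUFS6 was at 190 and 200 CPM in KO and 118 and 122 CPM in WT libraries, again without overlap (log2 fold change 0.70 ± 0.0622 SE, adjusted p = 1.55e-11; corrected, 0.42). NDUFA6, which docks a mitochondrial acyl carrier protein onto the complex, was at 40.4 and 40.6 CPM in KO and 26.8 and 26.3 CPM in WT libraries (0.61 ± 0.104 SE, adjusted p = 1.09e-05). NDUFA12, which takes the place of the assembly factor NDUFAF2 late in assembly, was at 41.3 and 41.9 CPM in KO and 30 and 30.6 CPM in WT libraries (0.46 ± 0.101 SE, adjusted p = 0.00035). In both of these genes the libraries of each group nearly coincided and the groups lay apart.

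The other core subunits of the N module did not rise. NDUFS1, the largest core subunit and a carrier of iron-sulfur clusters, was at 81.8 and 90.4 CPM in KO and 98 and 98.5 CPM in WT libraries. Both KO libraries were lower, and the log2 fold change of -0.19 ± 0.0725 SE passed (adjusted p = 0.0333) but was -0.014 in the corrected fit (adjusted p = 0.901). Its call was also lost in DESeq2 (adjusted p = 0.141), without the count filter (0.0768), without KO 1 (log2 fold change -0.12), without WT 1 (-0.19) and without WT 2 (-0.19). NDUFS4, an accessory subunit that stabilises the N module, was at 47.9 and 39.1 CPM in KO and 49.3 and 51.5 CPM in WT libraries. Both KO libraries were lower, with a log2 fold change of -0.21 (adjusted p = 0.0829) that was -0.29 in the corrected fit, where the gene fell (adjusted p = 0.0103). It also fell without KO 1 (-0.37), with library totals only (-0.28) and in limma on RPKM (-0.29), whereas without KO 2 it was at -0.074 (adjusted p = 0.63). NDUFA2 and NDUFV3 had log2 fold changes of 0.43 and 0.037 and passed in neither fit.

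NDUFV2, a core subunit with an iron-sulfur cluster, is encoded on chromosome 18. It was at 0.975 and 0.913 CPM in KO and 1.68 and 1.65 CPM in WT libraries, from 18 and 15 against 26 and 23 counts. The groups did not overlap, but the log2 fold change of -0.81 ± 0.523 SE did not pass (adjusted p = 0.232), although limma gave an adjusted p of 0.0208 on log2(RPKM + 1) and of 0.0314 on log2(RPKM + 0.1). Beside it, 181 of the 195 tested genes of chromosome 18 lay below 0, with a median log2 fold change of -0.76. The part of the chromosome in the NDUFV2 value was not tested. Its pseudogene NDUFV2P1 held 22 and 12 counts in KO and 36 and 22 counts in WT libraries, numbers like those of NDUFV2 itself.

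In the Q module, 5 of 6 members rose (83.3%) and 0 fell, beside 20.4% and 19.1% of all tested genes. The median log2 fold change was 0.32, and 2 of the 6 rose in the corrected fit (33.3%, beside 17.3% of all genes). NDUFS7, which carries the last iron-sulfur cluster before ubiquinone, was at 23.6 and 22.8 CPM in KO and 14.4 and 15.8 CPM in WT libraries. The groups did not overlap (log2 fold change 0.62 ± 0.134 SE, adjusted p = 0.000286), and the corrected value of 0.32 did not pass (adjusted p = 0.0544). NDUFS8, which carries a further pair of clusters, was at 142 and 127 CPM in KO and 101 and 102 CPM in WT libraries, and rose in both fits (0.41 ± 0.0683 SE, adjusted p = 7.1e-06; corrected, 0.17, adjusted p = 0.0232). Of the coding bases of NDUFS7, 48.5% are overlapped by genes on the opposite strand, and whether the counting used strand is not given in the sources used here.

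NDUFS3, a core subunit without a cofactor, was at 72.1 and 72.3 CPM in KO and 62.3 and 61.6 CPM in WT libraries. It was higher in each KO library than in each WT library, with a log2 fold change of 0.22 ± 0.0795 SE (adjusted p = 0.0255). The rise was not kept in the corrected fit (0.044, adjusted p = 0.7) or in DESeq2 (adjusted p = 0.106). NDUFS3 lost its call without any 1 of the 4 libraries, with log2 fold changes of 0.21 to 0.24. It shares 17.2% of its 50-nt stretches with PTPMT1 in GENCODE release 29.

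NDUFA9, an accessory subunit that binds NADPH, was at 16.7 and 13 CPM in KO and 11.7 and 10.2 CPM in WT libraries (log2 fold change 0.44 ± 0.165 SE, adjusted p = 0.0334; corrected, 0.54, adjusted p = 0.00815). The groups lay apart, but the call was lost without KO 1 (0.24), without WT 2 (0.34) and in DESeq2 (adjusted p = 0.196). NDUFA5 was the member of the module that did not rise, with both KO libraries below both WT libraries (56.9 and 54.6 against 61.2 and 62.7 CPM). The log2 fold change of NDUFA5 was -0.15 (adjusted p = 0.153) and turned to 0.17 in the corrected fit (adjusted p = 0.101). The 7 core subunits of the N and Q modules together summed to 621 and 602 CPM in KO and 502 and 493 CPM in WT libraries. Of these 7, 5 rose (71.4%) and 1 fell (14.3%), beside 20.4% and 19.1% of all tested genes. In the corrected fit 2 rose (28.6%) and 0 fell, beside 17.3% and 16.9% of all genes, and 0 were lower at an unadjusted p under 0.05.

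The ND1 module adjoins the Q module and holds the highest fold change of all members. NDUFA3, a small membrane subunit, was at 32.6 and 29.8 CPM in KO and 19.4 and 15.3 CPM in WT libraries. Both KO libraries were well above both WT libraries, with a log2 fold change of 0.84 ± 0.127 SE (adjusted p = 1.25e-06; corrected, 0.49, adjusted p = 0.00189). NDUFA1, an X-linked membrane subunit needed early in assembly, was at 56.9 and 49.2 CPM in KO and 31 and 36.8 CPM in WT libraries. Its groups did not overlap either (0.65 ± 0.101 SE, adjusted p = 2.38e-06; corrected, 0.33, adjusted p = 0.00499). NDUFA8 had a log2 fold change of 0.27 (adjusted p = 0.00872), which was 0.017 in the corrected fit, and its call was lost without KO 1 (0.14), without WT 1 (0.25) and in DESeq2 (adjusted p = 0.0603). NDUFA13, known also as the cell death regulator GRIM-19, had 10 and 10 counts in KO and 16 and 9 counts in WT libraries, too few for a difference to be detectable.

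In the ND2 module, all 5 members were higher in both KO libraries than in both WT libraries, as were 34.1% of all tested genes. Of the 5, 2 passed (40%), beside 20.4% of all tested genes rising. NDUFS5 was at 163 and 157 CPM in KO and 125 and 127 CPM in WT libraries (log2 fold change 0.34 ± 0.0625 SE, adjusted p = 3.32e-05), and its corrected value of 0.059 did not pass. NDUFA10, a subunit related to nucleoside kinases, was at 82.1 and 80 CPM in KO and 64.6 and 70.2 CPM in WT libraries. It rose in both fits (0.27 and, corrected, 0.29), and its call was lost without WT 1 (0.21) and in limma (adjusted p of 0.0949 and 0.0918). NDUFA11, NDUFC2 and NDUFC1 had log2 fold changes of 0.57, 0.23 and 0.082 and did not pass. NDUFA11 passed only without WT 2 (0.87, adjusted p = 0.0313) and was at 0.33 without WT 1, and NDUFC1 turned to -0.10 in the corrected fit.

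In the ND4 module, 1 of 6 members rose and 1 fell (16.7% each, near the 20.4% and 19.1% of all tested genes), with a median log2 fold change of 0.21 (corrected, 0 rising, 1 falling and a median of 0.094). In the corrected fit 1 member was higher at an unadjusted p under 0.05, and DESeq2 and limma on log2(RPKM + 1) each called 1 higher. NDUFB10 was at 121 and 108 CPM in KO and 88.1 and 86.2 CPM in WT libraries (log2 fold change 0.40 ± 0.0714 SE, adjusted p = 2.06e-05), a difference that was 0.032 in the corrected fit. NDUFB4 was at 59.8 and 54.6 CPM in KO and 66.5 and 72 CPM in WT libraries, with both KO libraries below both WT libraries. It fell in both fits (-0.27 ± 0.0837 SE, adjusted p = 0.00815; corrected, -0.29, adjusted p = 0.00289). Its call was lost without KO 2 (-0.21), without WT 2 (-0.22) and in DESeq2 (adjusted p = 0.0605). NDUFB1, NDUFB6 and NDUFB11 had log2 fold changes between 0.21 and 0.27 that did not pass, and NDUFB5 was at -0.08. NDUFB1 and NDUFB11 passed without KO 2 (0.40 and 0.29) and were at 0.13 and 0.12 without KO 1.

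In the ND5 module at the far end of the membrane arm, 3 of 6 members rose (50%), beside 20.4% of all tested genes. The median log2 fold change was 0.29. In the corrected fit 1 rose and 1 fell (16.7% each, near the 17.3% and 16.9% of all genes). NDUFB2 was at 13.5 and 12.7 CPM in KO and 8.19 and 7.25 CPM in WT libraries. The groups lay apart, and the gene rose in both fits (0.76 ± 0.176 SE, adjusted p = 0.000671; corrected, 0.65, adjusted p = 0.00321). Genes on the opposite strand overlap 45.2% of its coding bases. NDUFB7 was at 89.2 and 85.7 CPM in KO and 55.9 and 51.7 CPM in WT libraries, also without overlap (0.70 ± 0.0799 SE, adjusted p = 5.6e-09). Its corrected log2 fold change was 0.12 and did not pass (adjusted p = 0.258), and with a GC content of 65% and a length of 531 nt it is the shortest and most GC-rich member.

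NDUFAB1 and NDUFB9 of the same module are linked by structure, since NDUFAB1 is the mitochondrial acyl carrier protein and NDUFB9, like NDUFA6 in the N module, anchors a copy of it. NDUFAB1 was at 84.5 and 70.7 CPM in KO and 78.6 and 76.8 CPM in WT libraries, so the groups overlapped. Its log2 fold change of -0.00066 had no stable sign between settings, and it fell in the corrected fit (-0.21, adjusted p = 0.0204). NDUFB9 was at 116 and 102 CPM in KO and 89.1 and 90.4 CPM in WT libraries and rose (0.28 ± 0.0725 SE, adjusted p = 0.00203). That call was lost in the corrected fit (0.15, adjusted p = 0.0579), without KO 1 (0.18) and in limma on log2(RPKM + 1) (adjusted p = 0.0509). NDUFB3 passed in neither fit (0.31, adjusted p = 0.0705), but did without KO 2 (0.44) and without WT 2 (0.54) and with a replicate block (adjusted p = 0.0462). Its log2 fold change was 0.15 without KO 1 and 0.11 without WT 1. NDUFB8, with 12 to 17 counts in each library, showed no detectable difference.

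In the Q, ND1, ND2 and ND5 modules and among the NDUFAF assembly factors, the uncorrected edgeR fit found 0 members lower. In these groups 0 were lower at an unadjusted p under 0.05 as well, and DESeq2 and limma on log2(RPKM + 1) also called 0 lower, against 19.1% of all tested genes falling in the edgeR fit. Other settings did give falls, of NDUFAB1 in the corrected fit (-0.21, adjusted p = 0.0204) and of NDUFA5 with library totals only (-0.22, adjusted p = 0.0318). In the corrected fit 1 NDUFAF member was also lower at an unadjusted p under 0.05.

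A set of 4 accessory subunits that lie in the intermembrane space and fold with disulfide bonds, NDUFA8, NDUFB7, NDUFB10 and NDUFS5, was picked out after the values were seen. All 4 rose in the uncorrected fit, with log2 fold changes between 0.27 and 0.70. Those rises were known when the set was picked, so their number is no support for a shared pattern. In the corrected fit 0 rose, and 0 were higher at an unadjusted p under 0.05 as well. In DESeq2 and in limma on log2(RPKM + 1), 3 of the 4 rose. The part of GC content and length in these values was not tested.

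Among the 7 NDUFAF assembly factors, 2 rose (28.6%, near the 20.4% of all tested genes) and 0 fell, with a median log2 fold change of 0.30. In the corrected fit 3 rose (42.9%, beside 17.3% of all genes). NDUFAF2, a chaperone related to NDUFA12, was at 35.9 and 31.8 CPM in KO and 24.3 and 28.9 CPM in WT libraries. NDUFAF6, needed for the ND1 module, was at 20.3 and 17.6 CPM in KO and 17.4 and 11.1 CPM in WT libraries. Both rose (0.35 ± 0.114 SE, adjusted p = 0.0127, and 0.40 ± 0.16 SE, adjusted p = 0.043), although KO 2 and WT 1 of NDUFAF6 were almost equal. NDUFAF2 did not pass without KO 1 (0.26), without WT 1 (0.24) or in the corrected fit (0.27, adjusted p = 0.0506). NDUFAF6 did not pass without KO 1 (0.29) or without WT 2 (0.12). DESeq2 and limma on log2(RPKM + 1) called 0 of the 7 higher. NDUFAF2 shares 22% of its 50-nt stretches with AC012065.5.

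NDUFAF5, which hydroxylates NDUFS7, was at 11.5 and 11.7 CPM in KO and 9.93 and 7.75 CPM in WT libraries. NDUFAF7, a protein arginine methyltransferase, was at 23.9 and 20.7 CPM in KO and 17.4 and 19.2 CPM in WT libraries. The groups of neither gene overlapped, and both passed in the corrected fit (0.51, adjusted p = 0.0217, and 0.40, adjusted p = 0.014) but not in the uncorrected fit (0.39 and 0.29). NDUFAF5 also passed without WT 1 (0.59) but was at 0.23 without WT 2, and NDUFAF7 passed without KO 2 (0.38) but was at 0.18 without KO 1. NDUFAF1, which works in the intermediate assembly complex of the membrane arm, was at 11.9 and 13.3 CPM in KO and 9.67 and 10.8 CPM in WT libraries (0.30, adjusted p = 0.162). NDUFAF3 and NDUFAF4, partners in assembly of the Q module, were at 13.9 and 11.1 against 12.6 and 14.1 CPM and at 17.7 and 12.5 against 16.4 and 14.9 CPM. In both of them the groups overlapped.

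NDUFA4, which is now counted as a subunit of complex IV, was at 179 and 159 CPM in KO and 137 and 131 CPM in WT libraries. The groups lay apart and the gene rose in both fits (log2 fold change 0.34 ± 0.0652 SE, adjusted p = 7.12e-05; corrected, 0.49, adjusted p = 3.36e-09). Its hypoxia-inducible relative NDUFA4L2 was at 0.596 and 1.52 CPM in KO and 0.967 and 1.94 CPM in WT libraries. These groups overlapped (-0.46 ± 0.563 SE, adjusted p = 0.563), and the sign turned without KO 1 (0.078) and without WT 2 (0.11). Without NDUFA4 and NDUFA4L2, 20 of 43 tested members rose (46.5%) and 2 fell (4.65%), beside 20.4% and 19.1% of all tested genes.

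The members lie on 21 chromosomes. Chromosome 19 holds 6 of them (NDUFA3, NDUFA7, NDUFA11, NDUFA13, NDUFB7 and NDUFS7), of which 3 rose and NDUFA7 was not tested. Over all tested genes 20.4% rose. The 986 tested genes of chromosome 19 had a median log2 fold change of 0.25, which was 0.054 in the corrected fit. Chromosome 3 holds NDUFB4, NDUFB5 and NDUFAF3, of which 1 fell, beside 19.1% of all tested genes. The 806 tested genes of chromosome 3 had a median of -0.14 (corrected, -0.1). The shares of genes called on each chromosome were not computed. The part of these chromosome-wide shifts in the values of the members was not tested.

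The other genes of the pathway came from lists written with earlier results of these data known. Of 14 other complex I assembly factors, 6 rose (42.9%) and 0 fell, beside 20.4% and 19.1% of all tested genes. Their median log2 fold change was 0.22 (corrected, 4 rose and 2 fell, beside 17.3% and 16.9% of all genes). At an unadjusted p under 0.05 2 of them were lower, and DESeq2 called 0 lower and limma on log2(RPKM + 1) called 1. TMEM186 (0.65), C17orf89, the gene now named NDUFAF8 (0.61), and TMEM70 (0.44) had the largest rises. The number of rises in this list was 3 in DESeq2, which called 2165 of all 15104 tested genes higher. That number also depended on the library left out. C17orf89, the partner of NDUFAF5, was at 64.6 and 65.1 CPM in KO and 42.4 and 42.8 CPM in WT libraries, and its corrected value of 0.18 did not pass. Of the 7 subunits that mitochondrial DNA encodes, 4 rose (57.1%) and 0 fell, beside 20.4% and 19.1% of all tested genes. MT-ND1, MT-ND2, MT-ND5 and MT-ND6 rose, by log2 fold changes of 0.12 to 0.29. Of the 7, 0 were lower at an unadjusted p under 0.05, in DESeq2 and in limma on log2(RPKM + 1) as well. In the corrected fit MT-ND1, MT-ND2 and MT-ND5 rose and MT-ND4L fell (-0.21). The rises among these 7 were 2 with library totals only and 1 in limma on log2(RPKM + 1). Over all tested genes those fits gave 2508 and 2140 rises. The numbers of rises and falls among the 7 also depended on the library left out. The median of the 7 was 0.12, against 0.28 for the nuclear members. The difference between the lists was not tested.

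Nuclear subunits of the other complexes were counted in the same way. In complex II, 1 of 4 rose (25%), in complex III 6 of 9 (66.7%), in complex IV 8 of 12 (66.7%) and in complex V 9 of 15 (60%). Over all tested genes 20.4% rose, which is near the share of complex II. The median log2 fold changes of the 4 complexes were 0.12, 0.39, 0.33 and 0.37. ATP5A1 of complex V, which lies on chromosome 18, fell (-0.83), and so did COX7A1 of complex IV, which had under 1 CPM in every library. The COX7A1 call was lost in DESeq2, with a replicate block and whichever library was left out. In complexes II and III, 0 fell, beside 19.1% of all tested genes. The same 0 was found there at an unadjusted p under 0.05, in DESeq2 and in limma on log2(RPKM + 1). In the corrected fit 1, 4, 7 and 9 genes of complexes II to V rose, with medians of 0.043, 0.21, 0.21 and 0.22. Beside them, 14 of 45 complex I members rose with a median of 0.17, and 17.3% of all genes in that fit rose. The differences between these lists were not tested.

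**Figure D4:**
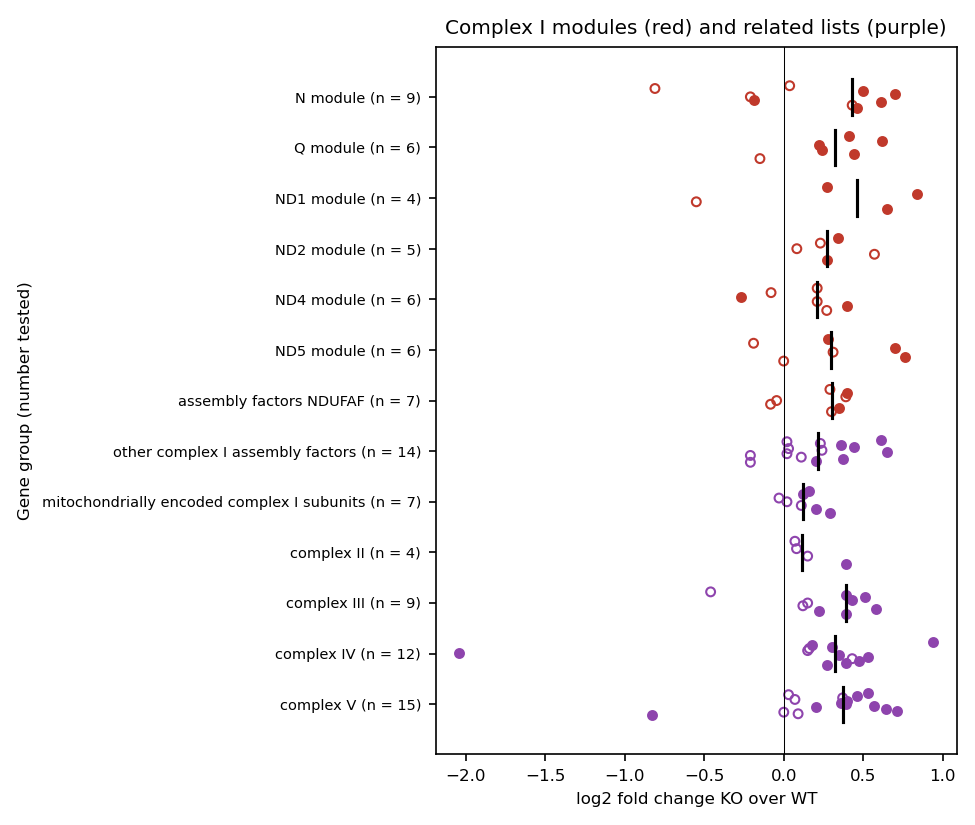
Log2 fold change of KO over WT for the tested complex I genes by module and for the related lists, 1 circle per gene, filled where the adjusted p was under 0.05, with a black bar at the median of each group. Medians lie above 0 in every group shown, from 0.12 to 0.46, and NDUFV2 (-0.81), ATP5A1 (-0.83) and the weakly expressed COX7A1 lie far to the left.

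Among 9 tested regulators of respiratory genes, 2 rose (22.2%, near the 20.4% of all tested genes) and 3 fell (33.3%). In the corrected fit 3 rose and 2 fell. ESRRA, the estrogen-related receptor that drives respiratory genes, was at 161 and 159 CPM in KO and 92.7 and 107 CPM in WT libraries (0.68, adjusted p = 3.12e-10), and the coactivator PPRC1 rose by 0.45. TFAM, the packaging and transcription factor of mitochondrial DNA, fell by 0.52 on the log2 scale, GABPA fell by 0.47 and YY1 fell by 0.23. GABPA did not pass in the corrected fit (-0.17, adjusted p = 0.144), and TFB2M, a mitochondrial transcription factor, rose there (0.29, adjusted p = 0.0327). NRF1 was at 25.1 and 24.5 CPM in KO and 25.1 and 27 CPM in WT libraries, with overlapping groups (-0.07, adjusted p = 0.679). Of the 16 rising members with a promoter sequence, 4 held the NRF1 motif (25%), 4 the YY1 motif (25%), 3 the GABPA motif (18.8%) and 0 the ESRRA motif. Among all 39 matched members the shares were 17.9%, 17.9%, 15.4% and 0%. Among all promoters they were 6.98%, 3.52%, 12.2% and 0.432%. The differences between these shares were not tested, and the matches give no measure of binding by these factors.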

How the data were processed

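RNA was extracted with TRIzol from 2 ATAD3A KO and 2 parental HN12 cultures, and libraries made with a NEBNext Ultra II kit were sequenced as 50-nt reads. The authors deposited raw read counts per gene, without normalization, and RPKM values. Each deposited RPKM equals its count divided by 1 length per gene and by the total of the library, a relation that held to within 1.8e-05%. The submitters' processing notes name CASAVA, STAR 2.5, HTSeq, edgeR 3.16.5, DESeq2 and the genome build hg19. The annotation and the use of strand in counting are not given in the sources used here. The study's methods name DESeq functions for its own comparison.

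Counts of 4 libraries were compared with edgeR 4.0.16 in R 4.3.3 (filterByExpr, TMM factors of 0.975 to 1.03, glmQLFit and glmQLFTest without a replicate term, Benjamini-Hochberg adjustment over 15104 genes, threshold 0.05). The biological coefficient of variation was 5.88%, and replicates differed by more than sampling noise (chi-square per degree of freedom 4.2 for KO and 3.36 for WT). P-values measure the spread between the libraries of a group, and depth limits the precision mainly for members with few counts. The KO spread may include differences between clones, since the clone or clones sequenced are not given. Library totals of 13569971 to 18943547 set the depth. The corrected fit used offsets per library from splines with 4 degrees of freedom on GC content and length, fitted to genes with an average log2 CPM over 2. Ensembl identifiers gave GC content, positions and overlaps in GENCODE release 29 (GRCh38), a different build from that of the files. Levels are CPM with TMM factors or the deposited RPKM. limma 3.58.1 was run on log2(RPKM + 1) and log2(RPKM + 0.1), and its fold changes are on that scale, which understates changes of low genes.

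Other alternatives were DESeq2 1.42.0, DESeq2 size factors in edgeR, library totals only, a replicate block, leaving out each library, no filter, and a minimum of 10 counts in every library. Scripts were tested on simulated data. Replicate numbers did not pair the libraries (correlation of deviations -0.0598 over 11161 genes). Of the core subunits, 1 enters the counts but is not reported here by name or value. The members and lists were chosen with earlier results of these data known. Values per library are given for the other core subunits, NDUFV2, members past the threshold with a log2 fold change of at least 0.4 in size, NDUFAF genes, NDUFA4 and NDUFA4L2, and for other members named beside them after their values were seen.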

Additional observations from a re-analysis of the deposited data

How the results depend on the processing

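Limma on log2(RPKM + 1) called 13 members higher, against 21 in the edgeR fit of the report (2140 against 3074 over all tested genes). The members called lower were 0 in DESeq2, 4 with library totals only and in limma with either pseudocount, and 1 without a filter, against 2. Over all genes 1881 fell in DESeq2, 3615 with library totals only and 2617 of 26726 without a filter, against 2891. Limma gave 2902 falls on log2(RPKM + 0.1) and 2879 on log2(RPKM + 1). The median log2 fold change of the members was 0.17 with the GC and length correction, with or without the replicate block, against 0.28. With 1 library left out it ran from 0.22 to 0.37. In the related lists together 36 genes rose and 5 fell, beside 3074 and 2891 of all 15104 tested genes. That count pools complexes, assembly factors and regulators, whose rises are given list by list above. It also depended on the library left out. The replicate block alone gave 22 rises and 2 falls, adding NDUFB3 (0.31) and losing no call of a member, and together with the correction it gave 15 rises and 3 falls. The numbers are shared labels only, so this is not a paired analysis. Signs turned with the correction for NDUFA5 (0.17), NDUFAF4 (0.17, or 0.16 with the block), NDUFB5 (0.16), NDUFB11 (-0.093, or -0.094 with the block), NDUFC1 (-0.10) and NDUFV3 (-0.069, or -0.071 with the block). Signs also turned for NDUFV3 with library totals only (-0.033), in limma on log2(RPKM + 0.1) (-0.038) and on log2(RPKM + 1) (-0.036). NDUFAB1, near 0 in the report, was at 0.002 in DESeq2, 0.0014 with at least 10 counts in every library and 0.011 without a filter. With 1 library left out, signs turned for NDUFA4L2 (-1.26 to 0.11), NDUFAB1 (-0.14 to 0.12), NDUFAF3 (-0.26 to 0.065), NDUFAF4 (-0.32 to 0.18), NDUFB5 (-0.20 to 0.056) and NDUFV3 (-0.071 to 0.13). None of these 9 genes passed the threshold in the uncorrected fit. Apart from the correction and the leaving out of samples, whose construction changes what is compared, the causes of these differences were not tested. Depth limits NDUFA7, NDUFA13, NDUFB8, NDUFV2 and NDUFA4L2 most, each with at most 27 counts in any library.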

Other observations

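The 14 NDUF rows that are not members held few reads. NDUFV2P1 had 22 and 12 counts in KO and 36 and 22 counts in WT libraries, and each of the other 13 had at most 8 counts in any library. They include the antisense rows NDUFA6-AS1 and NDUFB2-AS1, with 5 counts or fewer in any library.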
